A study of Rattus norvegicus with 6 samples.

Results

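The nuclear-encoded genes of oxidative phosphorylation were compared between the colons of azoxymethane-treated S.LEW congenic and Dahl S rats. A gene was kept when its symbol starts with Nduf, Uqcr or Atp5, is Sdha, Sdhb, Sdhc or Sdhd, starts with Cox followed by a digit from 4 to 8 and a letter, or is Cyc1 or Cycs. On the array, 106 probes read 83 such genes, of 15168 genes that could be named, and each gene was represented by its probe with the highest mean signal in the deposited values. A total of 82 were tested and 81 were well above background on all 6 arrays, since Cox8c was above background on no array and Cox8b only on those of the S rats. No probe was matched here to Cyc1, Cox7a1 or Ndufa4l2, or to any gene of the mitochondrial genome.

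All rats were males of 30 weeks of age, 3 of the S.LEW congenic strain (named C1 to C3) and 3 of the S strain (named S1 to S3), each with its own single-color array. The S rat is the inbred Dahl salt-sensitive strain (SS/Jr), and the congenic strain, S.LEW(10)x12x2x3x5, carries a segment of Lewis (LEW) rat chromosome 10 on the S background. Both strains were fed a 0.3% NaCl diet and were given azoxymethane (AOM), a colon carcinogen, by 2 weekly intraperitoneal injections that began at 6 weeks of age, each of 15 mg per kg, so no untreated colon entered the comparison. The labels do not say whether the sampled pieces of colon held tumors, and each strain is 1 inbred line.

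Signals are given as log2 of the background-corrected intensity after quantile normalization, which gives every array the same distribution. The median raw intensity ran from 214 to 594 between arrays, and 73.8% to 87.6% of the spots were well above background. S1 and S3 were the brightest, at 594 and 445, against 214 to 291 on the other arrays. They also had the highest shares above background (86.3% and 87.6%). Markers of colon epithelium (9 of 9 with a probe) and of smooth muscle (8 of 8) were above background on all 6 arrays. The S rats were not alike. Over all tested probes, S2 correlated with the 3 congenic arrays at r between 0.97 and 0.98, and with S1 and S3 at 0.90 and 0.94. The file headers hold 2 scan times, with C1 and the 3 S arrays in the first scan and C2 and C3 in the second.

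Oxidative phosphorylation is the last stage of aerobic respiration. Electrons from NADH enter complex I and electrons from succinate enter complex II, pass through coenzyme Q to complex III, through cytochrome c to complex IV, and reduce oxygen. The protons pumped on the way drive complex V, the ATP synthase. Most subunits are encoded in the nucleus and imported, while a small core set is encoded by mitochondrial DNA. In the colon, absorptive epithelial cells are known to burn butyrate from bacterial fermentation through this pathway. Nuclear genes of the pathway are often described as targets of the transcription factors NRF1, GABP (an ETS factor) and YY1, with the coactivators of the PGC-1 family.

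The start sites of 5 members are shown to set the letters read by these factors beside the values that follow. They are the member with the largest increase (Ndufa11), a pair of ATP synthase subunits whose promoters hold a full NRF1 motif (Atp5po and Atp5me), and the ubiquitous and tissue isoforms of a complex IV subunit, Cox8a and Cox8b. Each line holds the 100 bases before the RefSeq start of the gene on the GRCr8 assembly, from 5′ to 3′ on the strand of the gene. Capitals mark the full NRF1 motif, a palindrome of 10 bases that stands alone in Atp5po, or the ETS motif CCGGAAG or its reverse complement CTTCCGG. The Ndufa11 bases lie on the plus strand at chr9:1637514-1637613, those of Atp5po on the minus strand at chr11:44657484-44657583, those of Atp5me on the plus strand at chr14:1464760-1464859, those of Cox8a on the minus strand at chr1:213833624-213833723, and those of Cox8b on the minus strand at chr1:205408274-205408373.
Ndufa11: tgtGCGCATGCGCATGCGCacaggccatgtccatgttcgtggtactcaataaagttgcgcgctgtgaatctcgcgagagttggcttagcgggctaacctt
Atp5po: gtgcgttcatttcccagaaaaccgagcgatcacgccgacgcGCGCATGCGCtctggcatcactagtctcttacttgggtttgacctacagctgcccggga
Atp5me: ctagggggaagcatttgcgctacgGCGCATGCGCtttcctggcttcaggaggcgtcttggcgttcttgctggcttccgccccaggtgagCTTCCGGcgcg
Cox8a: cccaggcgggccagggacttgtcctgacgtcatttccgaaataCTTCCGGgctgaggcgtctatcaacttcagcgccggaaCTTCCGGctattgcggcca
Cox8b: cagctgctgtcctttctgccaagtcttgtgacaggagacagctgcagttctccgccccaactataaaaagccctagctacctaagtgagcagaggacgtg

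In Ndufa11, a pair of overlapping NRF1 motifs began 97 and 91 bases before the start. Atp5po had the motif 59 bases before the start, and Atp5me had it 76 bases before the start with an ETS motif at 11 bases. Cox8a had ETS motifs at 57 and 19 bases before the start and a YY1 motif, not marked above, that began 4 bases before it. Atp5me had a YY1 motif 183 bases before the start, and Atp5po had one just after the start. Cox8b had none of the NRF1, ETS or YY1 motifs anywhere in its window. Windows of 250 bases before to 50 bases after the start were available for 73 of the 83 members and searched on both strands. The full NRF1 motif was in 6 of these windows (8.22%), against 1.28% of the windows of all genes named on the array. Besides Ndufa11, Atp5po and Atp5me (log2 fold changes, congenic minus S, of 1.02, 0.63 and 0.64), these were Atp5mc2, Ndufaf5 and Ndufaf4 (0.38, 0.33 and 0.15). The ETS motif was in 22 (30.1%, against 13.0%) and the YY1 motif AAGATGGC (reverse complement GCCATCTT) in 13 (17.8%, against 3.98%). With any base at the fifth position on either strand, the NRF1 motif was in 14 (19.2%, against 7.08%), the 6 full ones included. The estrogen-related receptor motif TCAAGGTCA (reverse complement TGACCTTGA) was in 1 member window, that of Sdhd, against 0.21%. The CCAAT box, CCAAT or ATTGG, was in 26 (35.6%, against 38.0%) and the GC box, GGGCGG or CCGCCC, in 31 (42.5%, against 49.2%), and the median GC content was 56.3% against 57.7%. These are matches of letters, and binding was not measured.

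Nearly all members were higher in the congenic rats, by a similar and moderate amount. The median log2 fold change of the 82 members was 0.58, a 1.49-fold higher signal, against 0.01 over the 23965 probes tested. The fold change was above 0 for 77 members (93.9%, against 51.3% of all probes), and 71 members lay between 0.3 and 0.85. The 3 congenic rats were all above the 3 S rats for 68 members (82.9%), against 12.4% of all probes. The reverse was seen for 1 member, Cox8b, against 5.3% of all probes.

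By limma, 54 members (65.9%) were higher at an unadjusted p under 0.05, against 8.58% of all probes, and 1 was lower, against 4.39%. None passed after Benjamini-Hochberg adjustment over all probes, where 0% of all probes passed in either direction and the lowest adjusted p was 0.101, and the lowest adjusted p of a member was 0.268. With a 2-fold change added to the unadjusted p, as in the cut-off of the study, 1 member was higher (Ndufa11, against 3.23% of all probes) and 1 lower (Cox8b, against 2.35%). An exact two-sided permutation test of a single gene cannot give a p below 0.10 with 3 rats against 3. By the methods' t-test on the same values, 59 members were higher and 1 lower at an unadjusted p under 0.05, against 8.27% and 2.52% of all probes, and none passed after adjustment. With the scan as a block, 21 members were higher at that p by limma, against 3.35% of all probes, with a median of 0.62. Because C2 and C3 are alone in the second scan, both this contrast and the comparison within the first scan rest on C1 alone against the 3 S rats. Within the first scan C1 was above all S rats for 73 members, against 27.6% of all probes, and 0 were higher at an unadjusted p under 0.05, against 2.04%.

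**Figure D1:**
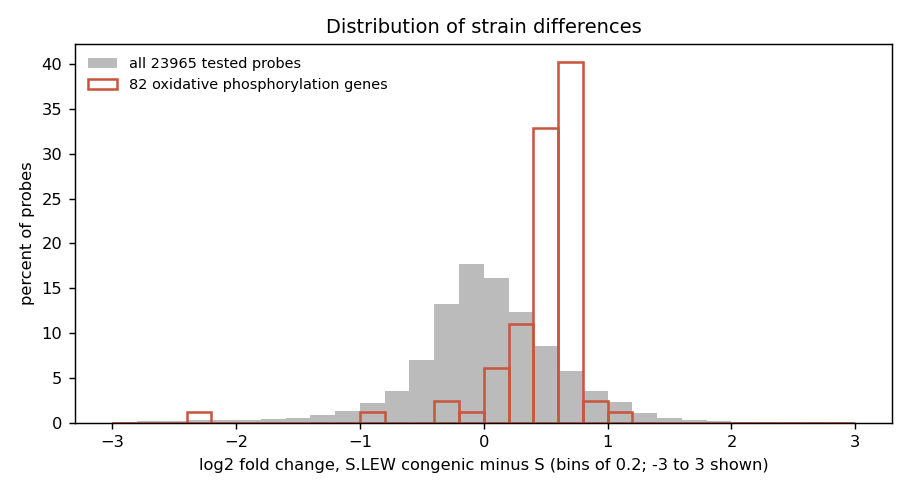
Percent of probes in bins of 0.2 of the log2 fold change (x axis, S.LEW congenic minus S), for all 23965 tested probes in grey and the 82 oxidative phosphorylation genes as open red bars. The members pile up around their median of 0.58, to the right of the median of 0.01 of all probes, with Cox8b alone at the left.

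The members were as a rule bright. Among the 2624 probes with a mean log2 signal of at least 12, a limit set after seeing the data, 16.5% did not overlap with the congenic rats higher, 7.36% were higher at an unadjusted p under 0.05, and the median log2 fold change was -0.01. Of the 55 members that bright, 51 did not overlap and 39 were higher at that p, with a median of 0.58.

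The S rats differed among themselves in these genes more than the congenic rats did. With each gene centred on its mean over the 6 arrays, the median over the 82 members was 0.34 on the log2 scale in C1 and 0.24 in both C2 and C3. S1 stood at -0.42, S2 at -0.08 and S3 at -0.32. S2 therefore lay closest to the congenic rats, and it was the highest S rat in 64 of the 82 members, while S1 was the lowest in 51. The SD over the congenic rats was below the SD over the S rats for 63 members. The shares of all probes for these counts are not given here, so the counts cannot show a trait particular to the members. Over all tested probes the congenic arrays correlated with each other at r of 0.97 to 0.98. S1 and S3 correlated at 0.98, and S2 with them at 0.90 and 0.94.

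**Figure D2:**
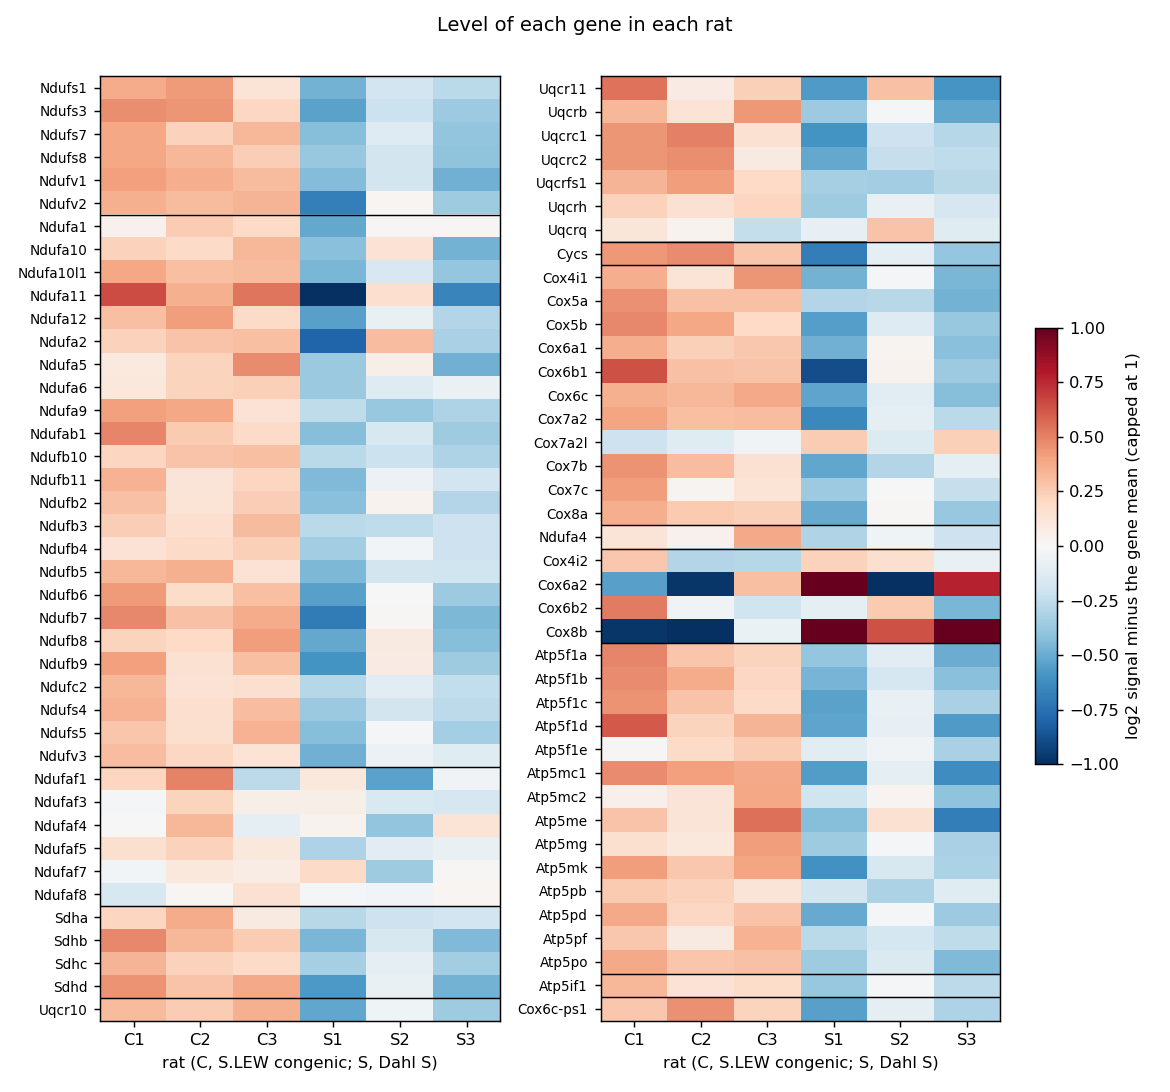
Each row is a gene (1 tested member is not shown) and each column a rat, and color is the log2 signal minus the mean of the gene over the 6 arrays, capped at 1 in either direction; black lines part the groups of genes in the order core, accessory and assembly genes of complex I, complex II, complex III, cytochrome c, ubiquitous complex IV, Ndufa4, tissue isoforms of complex IV, complex V, its inhibitor and the pseudogene. The congenic columns are red and the S columns blue for most genes, with S2 the palest of the S rats and the assembly factors and tissue isoforms apart.

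Without S2, 48 members (58.5%) were higher at an adjusted p under 0.05 by limma, against 12.5% of all probes, 1 was lower, against 10.7%, and the median was 0.69. With S1 and S3 left out together, a choice made after seeing the data, 73 members had all 3 congenic rats above S2, against 32.1% of all probes, and the median was 0.37. In that comparison the lone S rat was assumed to vary like the congenic rats, and 4 members were higher at an unadjusted p under 0.05, against 4.04%.

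Markers of several cell types also differed between the strains or among the S rats. Of the 9 epithelial markers, 7 were higher in the congenic rats at an unadjusted p under 0.05 (8.58% of all probes) and 6 did not overlap (12.4%). They had a median log2 fold change of 0.81, and their summed signal was 185000 to 247000 in the congenic and 115000 to 139000 in the S rats. Their median level was highest in C1 and lowest in S1, as for the members. Of the 8 markers of absorptive colonocytes, 4 were higher and 1 (Aqp8) lower at that p, and they summed to 80300 to 119000 in the congenic and 27100 to 54200 in the S rats. Among the S rats their median level was highest in S1 (-0.09) and lowest in S2 (-0.62), the reverse of the members. Of the 6 goblet cell markers, 3 were higher, with sums of 16500 to 19500 and 8280 to 13000. All 6 tested T and B lymphocyte markers had a log2 fold change below 0, 5 of them at an unadjusted p under 0.05, against 4.39% of all probes. The summed signal of all 10 was 1350 to 1880 in the congenic rats, 1750 in S2, and far higher in S1 and S3, up to 62000. The 8 smooth muscle markers summed to 623000 to 704000 in the congenic rats and 197000 to 747000 in the S rats, with 1 higher and S1 lowest. The part of these cell types in the results was not tested. In RNA from whole tissue, fewer cells of a type and less RNA per cell cannot be told apart.

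**Figure D3:**
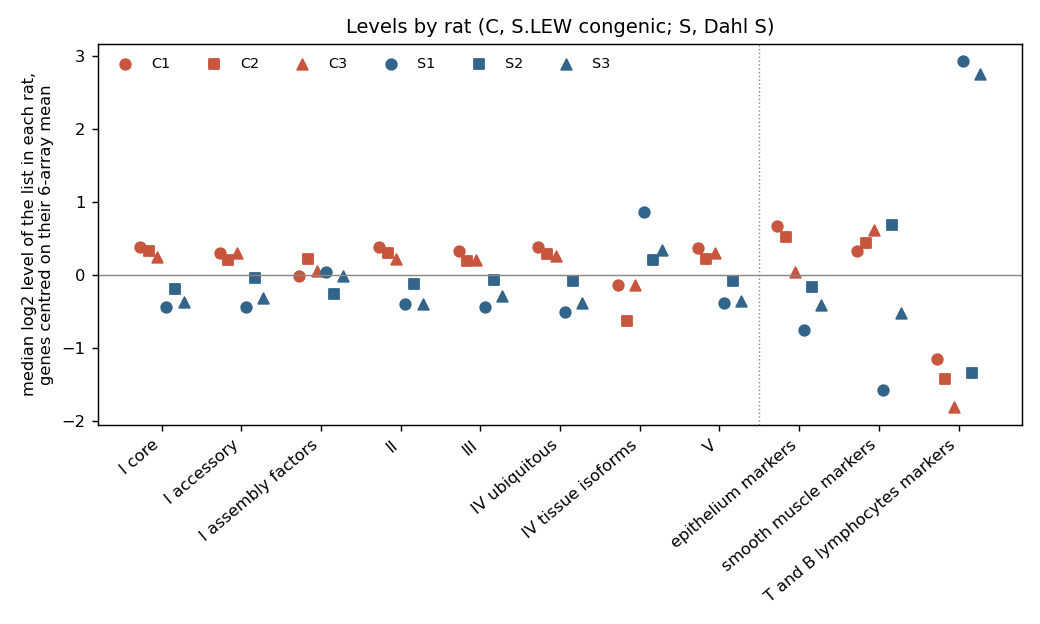
Median log2 level of each gene list in each rat (y axis), with each gene centred on its mean over the 6 arrays; red points are congenic rats and blue points S rats, and the lists right of the dotted line are cell type markers. In complexes I (core and accessory) to V, except the complex IV tissue isoforms, the 3 congenic rats lie above the 3 S rats, and the lymphocyte markers set S1 and S3 apart from the other 4 rats.

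Complex I, the NADH dehydrogenase, is the largest of the complexes, with core subunits that carry the electrons and accessory subunits around them. All 7 measured nuclear core subunits were higher at an unadjusted p under 0.05 without overlap, with a median log2 fold change of 0.64. For these counts and those of the groups that follow, the shares of all probes were 8.58% at that p and 12.4% without overlap. Ndufv1, which binds NADH and flavin, read 13.76, 13.71 and 13.67 in C1 to C3 and 12.92, 13.17 and 12.87 in S1 to S3. The strains were well apart for this gene, with a log2 fold change of 0.72 (SE 0.17, n = 3 per strain, adjusted p by limma 0.268), the lowest adjusted p of the members. Ndufs3 read 11.86, 11.84 and 11.60 in the congenic rats and 10.86, 11.18 and 11.03 in the S rats, and its log2 fold change of 0.74 was the highest of the core. Ndufs1, the largest iron-sulfur subunit, gave 0.62 (SE 0.18) and Ndufs8 gave 0.64 (SE 0.17).

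The 24 accessory subunits had a median of 0.54, with 16 higher at an unadjusted p under 0.05 and 23 not overlapping. Ndufa11, an accessory subunit in the membrane arm, had the highest log2 fold change of all members. It read 10.49, 10.19 and 10.37 in the congenic rats and 8.79, 10.01 and 9.18 in the S rats. S2 was close to the congenic rats for this gene and S1 far below, and the log2 fold change was 1.02 (SE 0.33, adjusted p by limma 0.335), against 0.33 when S2 was the only S rat. Ndufa10l1, a close relative of Ndufa10, gave 0.66 (SE 0.17) and Ndufb8 gave 0.56 (SE 0.22). Ndufa1 was the lowest of the accessory subunits, and its 0.32 (SE 0.21) did not pass. Ndufa2 was the accessory subunit with an overlap, since S2 at 8.75 was above all 3 congenic rats, which read 8.67 to 8.74.

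The 6 Ndufaf genes, which help to assemble complex I and are not part of it, stood below the subunits. None was called and 1 (Ndufaf5) did not overlap, with a median of 0.16. Ndufaf5, a methyltransferase that modifies a core subunit, was the highest at 0.33 (SE 0.17). Ndufaf8 was the lowest at 0.01 (SE 0.17), with 10.65, 10.83 and 10.96 in the congenic rats and 10.80, 10.78 and 10.83 in the S rats. The difference between subunits and assembly factors was not tested.

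**Figure D4:**
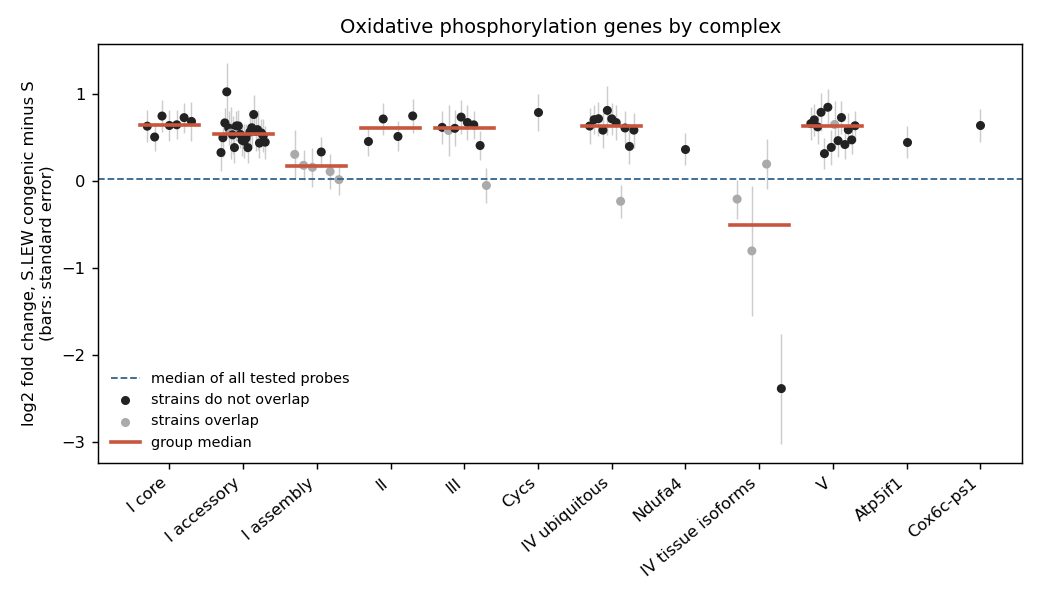
Log2 fold change of each member (points, with bars of 1 standard error) by group, with black points where the 3 rats of each strain do not overlap, grey points where they do, red lines for the median of groups of more than 2 genes, and a dashed line for the median of all tested probes. The groups of subunits center between 0.5 and 0.7, the assembly factors near 0.2 and the tissue isoforms of complex IV below 0, where the value of Cox8b is the fitted -2.39 of a gene not above background in the congenic rats.

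Complex II, the succinate dehydrogenase, is shared with the tricarboxylic acid cycle and is wholly encoded in the nucleus. All 4 subunits were higher at an unadjusted p under 0.05 without overlap, with a median of 0.61. The iron-sulfur subunit Sdhb read 13.11, 12.96 and 12.88 in the congenic rats and 12.17, 12.47 and 12.19 in the S rats, which gives a log2 fold change of 0.71 (SE 0.18). The membrane anchors Sdhd and Sdhc gave 0.74 (SE 0.20) and 0.51 (SE 0.17). The flavoprotein Sdha, the catalytic subunit, gave the lowest value, 0.45 (SE 0.17), and the adjusted p of the 4 genes by limma ran from 0.274 to 0.362.

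Complex III, the cytochrome bc1 complex, passes electrons from coenzyme Q to cytochrome c. Of its 8 tested subunits, 5 were higher at an unadjusted p under 0.05 and 6 did not overlap, with a median of 0.61. The Rieske iron-sulfur protein Uqcrfs1 read 12.73, 12.81 and 12.59 in the congenic rats and 12.06, 12.04 and 12.11 in the S rats. Its S rats lay close together, S2 included, and the log2 fold change was 0.64 (SE 0.16, adjusted p by limma 0.274). The core proteins Uqcrc1 and Uqcrc2 gave 0.73 and 0.67 (SE 0.20 for each). Uqcrq, a small subunit, did not follow, with 10.61, 10.52 and 10.25 in the congenic rats and 10.41, 10.77 and 10.37 in the S rats, which gives a log2 fold change of -0.06 (SE 0.20). The strains overlapped for the chosen probe of Uqcr11 too, where S2 reached 12.92 and C2 and C3 read 12.71 and 12.87. Its other probes gave 0.67 and 0.78 without overlap.

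Cytochrome c, the mobile carrier between complexes III and IV that also takes part in apoptosis when released, is encoded by Cycs. It read 14.27, 14.31 and 14.12 in the congenic rats and 13.15, 13.74 and 13.45 in the S rats. The log2 fold change was 0.78 (SE 0.21, adjusted p by limma 0.277), and a second probe of the gene gave 0.73.

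Complex IV, cytochrome c oxidase, holds several subunits that exist as a ubiquitous and a tissue-restricted isoform. Of its 11 ubiquitous genes, 9 were higher at an unadjusted p under 0.05 and 10 did not overlap, with a median of 0.63. Cox5a read 13.87, 13.71 and 13.71 in the congenic rats and 13.12, 13.14 and 12.94 in the S rats, which gives a log2 fold change of 0.70 (SE 0.17, adjusted p by limma 0.268). Cox6c (0.71, SE 0.18), Cox7a2 (0.67, SE 0.20), Cox4i1 (0.63, SE 0.21), Cox6a1 (0.58, SE 0.20) and Cox8a (0.58, SE 0.20) were higher by similar amounts. Cox6b1 had the highest log2 fold change, 0.81 (SE 0.28), but its 3 probes differed, with 0.63 and -0.05 for the others. Cox7a2l, which joins complexes III and IV into supercomplexes, was the exception. It read 12.91, 12.99 and 13.08 in the congenic rats and 13.37, 12.98 and 13.35 in the S rats, which gives a log2 fold change of -0.24 (SE 0.19) that did not pass. Ndufa4, named for complex I but known as a subunit of complex IV, gave 0.37 (SE 0.18) without overlap and did not pass. The pseudogene Cox6c-ps1 gave 0.63 (SE 0.19) by its chosen probe and 0.08 (SE 0.19) with an overlap by another. Whether these probes read Cox6c transcripts was not tested.

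The tissue isoforms of complex IV had lower fold changes than the ubiquitous genes, a difference that was not tested. Of the 4 tested, none was higher at an unadjusted p under 0.05. The median was -0.51, and -0.21 without Cox8b. Cox8b, an isoform of heart and skeletal muscle and brown fat, read 4.26, 2.68 and 5.16 in the congenic rats, where no array had it well above background, and 6.73, 5.87 and 6.68 in the S rats, where it was on all 3. The congenic signal was therefore at least 2.51-fold lower than that of S (adjusted p by limma 0.277), a bound that ran from 2.04 to 3.04 when single rats were left out. Because the gene passed the filter through the S arrays alone, the filter favored a lower signal in the congenic rats. Its direction is therefore not a separate result. Cox6a2, the isoform of the same muscles, read 7.14, 6.71 and 7.98 in the congenic and 9.34, 6.47 and 8.45 in the S rats. S1 was high and S2 lowest of all rats, and the log2 fold change of -0.81 (SE 0.75) did not pass. Cox4i2, known from lung and for its response to oxygen, gave -0.21 (SE 0.22), and Cox6b2, known from testis, gave 0.19 (SE 0.29).

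Markers of striated muscle and fat stood beside these isoforms as follows. Of 9 tested striated muscle markers, 3 were lower in the congenic rats at an unadjusted p under 0.05 (Myh1, Mybpc1 and Tnnt3), against 4.39% of all probes. Myh1 and Mybpc1, like Cox8b, were above background on no congenic array and passed the filter through the S rats alone. The summed signal of all 11 was 20400 to 25000 in the congenic and 10600 to 46000 in the S rats, and Myh4 was above background on no array. The sum was highest in S2, which had the lowest Cox8b of the S rats. The tested markers were split in this. Myh2, Acta1, Ckm, Tnni2 and Tnnc2 were highest in S2 among the S rats (10.94, 12.94, 14.87, 10.41 and 12.02). Mybpc1 (8.23, 7.63 and 7.80 in S1 to S3), Tnnt3 (8.98, 7.93 and 8.77) and Actn3 (7.85, 7.01 and 8.81) were, as Cox8b was, lowest in S2. Myh1 was lowest in S3 (5.87). Of the 3 brown fat markers, Ucp1 and Dio2 were above background on no array, and Cidea was on all 6, with a log2 fold change of 1.08 (SE 0.34) and no overlap. The 7 adipocyte markers summed to 2330 to 4460 in the congenic and 1300 to 2790 in the S rats. Of these, 4 were higher in the congenic rats at an unadjusted p under 0.05 (8.58% of all probes) and 0 lower. With the congenic rats higher, 4 did not overlap (12.4%), and the median log2 fold change was 0.92. Their part in the Cox8b difference was not tested.

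**Figure D5:**
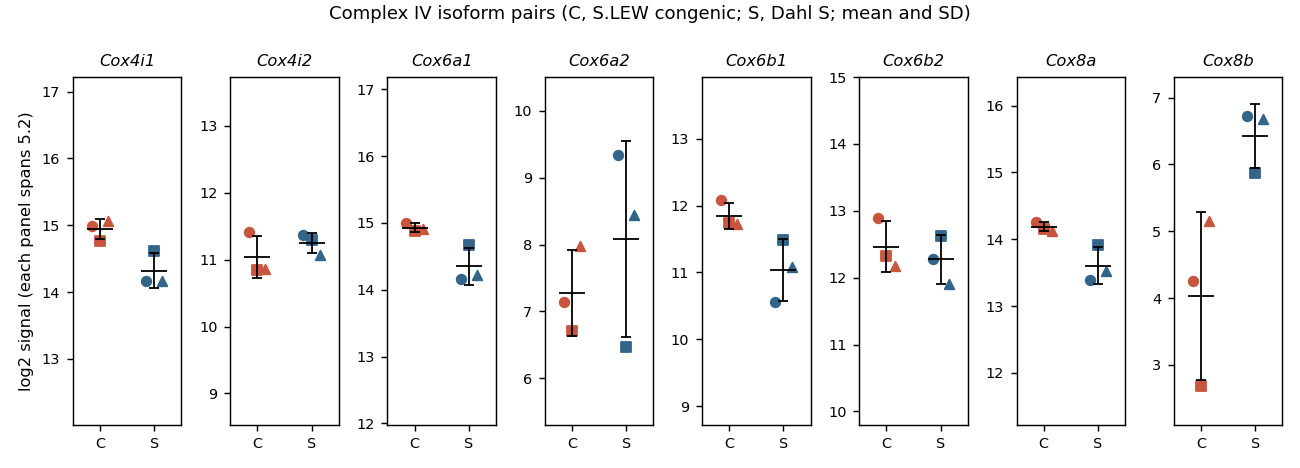
Log2 signal (y axis, each panel spanning the same range of 5.2 at its own level) of 4 pairs of complex IV isoforms in each rat, with congenic rats (C) in red, S rats (S) in blue, circles, squares and triangles for rats 1, 2 and 3 of a strain, and black lines for the mean and SD. The ubiquitous member of each pair is higher in all congenic rats than in all S rats, while Cox4i2, Cox6a2 and Cox6b2 overlap and Cox8b is lower in the congenic rats.

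Complex V, the ATP synthase, couples a catalytic head to a ring in the membrane that is turned by protons. All 14 subunits had a log2 fold change above 0, and over these and the inhibitor 11 of 15 were higher at an unadjusted p under 0.05 and 14 did not overlap, with a median of 0.62. Atp5mc1, which encodes a subunit of the ring, read 13.30, 13.24 and 13.21 in the congenic rats and 12.27, 12.74 and 12.21 in the S rats. It had the highest log2 fold change of the complex, 0.84 (SE 0.20, adjusted p by limma 0.269). Atp5f1b and Atp5f1a, subunits of the head, gave 0.70 (SE 0.18) and 0.65 (SE 0.19). Atp5po, whose promoter is shown above, gave 0.63 (SE 0.17). Atp5me gave 0.64 (SE 0.27) with an overlap, as S2 at 14.90 was above C2 at 14.88. Atp5f1e, a small subunit of the central stalk, was the lowest at 0.31 (SE 0.18) and did not pass. Atp5if1, the inhibitor that binds the enzyme and blocks ATP hydrolysis, read 13.51, 13.32 and 13.36 in the congenic and 12.80, 13.16 and 12.92 in the S rats, which gives a log2 fold change of 0.44 (SE 0.18).

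Other probes of the same genes mostly gave the same direction. For 18 members a further 23 probes were tested, and 22 of these had a log2 fold change above 0. The exception was a probe of Cox6b1. The lowest of the 22 were close to 0, at 0.02 and 0.08. Processed pseudogenes of many members exist in the rat genome, and whether single probes also read transcripts of such copies was not tested.

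The genes that feed and build the pathway were counted in the same fit. Of 17 tested genes of the tricarboxylic acid cycle and pyruvate dehydrogenase, 11 were higher at an unadjusted p under 0.05 and none lower, with a median of 0.58. Of all probes, 8.58% were higher and 4.39% lower at that p. The pyruvate dehydrogenase subunit Pdhb gave 0.65 (SE 0.17), while the citrate synthase gene, Cs, gave 0.18 (SE 0.16) without overlap and did not pass. Of 14 mitochondrial carriers and channels, 6 were higher, with a median of 0.51. The dicarboxylate carrier Slc25a10 led with 1.06 (SE 0.24, adjusted p by limma 0.246). Of 12 genes of coenzyme Q synthesis, 5 were higher (Pdss2 0.58, SE 0.17), with a median of 0.44. Neither list held a gene that was lower at that p.

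The lists of other assembly factors, mitochondrial ribosomal proteins and import genes had lower medians than these. Of 31 assembly factors outside the symbols above, 8 were higher, with a median of 0.29, and Lyrm7, a complex III factor, led with 1.11 (adjusted p by limma 0.203). Of 66 mitochondrial ribosomal protein genes, 11 were higher, with a median of 0.27, led by Mrpl12 with 0.99 (adjusted p 0.21). Of 16 import genes, 2 were higher, with a median of 0.35, led by the chaperone Hspd1 with 0.58. None of the 3 lists held a gene that was lower at an unadjusted p under 0.05. The shares of all probes at that p were 8.58% higher and 4.39% lower.

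The regulators of mitochondrial biogenesis did not move as a group. Of 17 tested, 2 were higher at an unadjusted p under 0.05 and none lower, against 8.58% and 4.39% of all probes, with a median of -0.12. The 2 were coactivators of the PGC-1 family, while Pprc1 of the same family gave -0.50 (SE 0.25) and did not pass. Ppargc1b read 10.90, 10.66 and 11.14 in the congenic and 9.65, 10.46 and 9.44 in the S rats, which gives a log2 fold change of 1.05 (SE 0.31, adjusted p by limma 0.311), and Ppargc1a gave 0.86 (SE 0.32). S2 was again the S rat nearest to the congenic rats. Of the factors whose motifs are described above, Nrf1 gave -0.72 (SE 0.35), with S1 and S3 high and S2 within the congenic range, Gabpa gave -0.02 (SE 0.20) and Yy1 gave -0.21 (SE 0.23), and none of them passed.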

How the data were processed

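Total RNA from the colon of 3 S.LEW congenic and 3 S rats was labeled with Cy3 and hybridized to Agilent Rat 4x44K arrays. Per the file headers, images were read with Agilent Feature Extraction 11.0.1.1, and the deposited intensity of each spot is background-corrected and not normalized between arrays. The authors also deposited log2 values of 23997 probes, quantile-normalized in GeneSpring. These were used to pick the probe of each gene and as an alternative.

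Spots flagged as outliers were dropped, repeated spots were averaged on the log2 scale, and quantile normalization followed. A probe entered the test when 3 or more of the 6 arrays had it well above background, and the contrast between strains was fitted without covariates in limma 3.58.1 (R 4.3.3), with Benjamini-Hochberg adjustment over 23965 probes. The test was checked on simulated data. The number of arrays limits the precision. A bound sets the brighter strain against, on each array of the dimmer strain, the higher of the probe's own signal and the dimmest signal still called above background. Accessions named 18005 of 30367 probes through RefSeq genes of GRCr8, from which the promoter windows were also taken. Plots were drawn with matplotlib 3.10.9.

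The members and gene lists were chosen with earlier results of these data known. The text names the 10 members with the smallest p, the highest and lowest fold change of each group, a list of genes picked by role, and the gene with the smallest p of each other list. Ndufa2, Ndufaf4, Uqcr11, Atp5mc2, Atp5po, Atp5me, Cs, Ppargc1a, Pprc1, Nrf1, Gabpa and Yy1 fall outside this rule and were named after their values were seen. The values of 1 member are not reported singly here.

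Alternatives tried were the deposited values, the 75th percentile of each array as its scale, normexp background correction (offset 50), filters on all 6 arrays or none, keeping flagged spots, limma's array weights, the methods' t-test, a block on the replicate number or on the scan, the first scan alone, the mean of the probes of a gene, and leaving out each rat in turn. The omission of S1 and S3 together was added after the data were seen.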

Additional observations from a re-analysis of the deposited data

How the results depend on the processing

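The direction of the members as a group was the same under every alternative run. The medians of complexes I to V and of all members were above 0 in all 114 recomputed values, from 0.30 to 0.73, and 67 to 73 members did not overlap with the congenic rats higher under the 15 alternatives that give this count, where the share of all probes ran from 11% (75th percentile) to 32.4% (without S2). The counts of 73 came within the first scan (27.6% of all probes) and with S1 and S3 left out (32.1%). The median of all probes moved between -0.0016 and 0.06. The counts past a threshold were less stable. Members higher at an unadjusted p under 0.05 numbered 54 (8.58% of all probes), and 25 with the replicate number as a block (6.3%), 21 with the scan as a block (3.35%), 0 within the first scan (2.04%), 4 with S1 and S3 left out (4.04%), and 26 to 67 with each rat left out in turn (4.05% to 22.8%, the 67 and the 22.8% without S2). Those with fewer came without C1 (26), C2 (31), C3 (35), S1 (29) and S3 (27), and the cause was not tested beyond the smaller number of samples. Members lower at that p, 1 in the main comparison, numbered 0 with the filter on all 6 arrays (3.85% of all probes), which drops Cox8b, 0 with the scan as a block (1.24%), 0 with S1 and S3 left out (3.7%), 3 with array weights (26.3%) and 1 to 3 with single rats left out (1.3% to 18.3%). At an adjusted p under 0.05, 69 members were higher and 3 lower with array weights, against 29% and 23% of all probes, and 0 to 48 were higher and 0 to 1 lower with single rats left out, the upper values without S2 (12.5% and 10.7%). With a 2-fold change added, 0 were higher with normexp, with the methods' t-test, within the first scan and with S1 and S3 left out, 2 with array weights (8.71% of all probes) and 0 to 3 with single rats left out (1.99% to 10%). On the same rule 0 were lower with normexp, with the filter on all 6 arrays, with the scan as a block and with S1 and S3 left out, 2 with array weights (7.26%) and 1 to 2 with single rats left out (0.776% to 7.19%). Members not overlapping with the congenic rats lower numbered 0 with the filter on all 6 arrays (4.67% of all probes), 3 within the first scan (19.5%), 3 with S1 and S3 left out (24%) and 1 to 3 with single rats left out (6.7% to 27.5%). With S1 and S3 left out the median log2 fold change was 0.37 over all members, 0.33 in complex I, 0.44 in II, 0.34 in III, 0.30 in IV and 0.41 in V.

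Of 39 named members, 6 changed sign under some alternative, none of them past a threshold in the main comparison. Ndufaf8 was at -0.017 with array weights, -0.15 with the scan as a block and within the first scan, and -0.0644 to 0.093 with single rats left out. Uqcrq was at 0.10 with array weights, 0.093 with the scan as a block and within the first scan, and -0.13 to 0.071 with single rats left out. Cox4i2 was at 0.16 with the scan as a block and within the first scan, and Cox6b2 at -0.0257 without C1 (up to 0.37 without S2) and -0.17 with S1 and S3 left out. With S1 and S3 left out Cox6a2 was at 0.81 and Cox7a2l at 0.014. The paper housed an S rat and a congenic rat in each cage, and the labels do not say whether rats of the same replicate number shared one. Over all probes, the deviations of rats of the same number had r of -0.02, -0.13 and -0.06, and other pairs ran from -0.22 (C1 with S3) to 0.26 (C2 with S3). These values cannot show whether the numbers hold a pairing. No other count of members moved under the block on this number. Among the medians of subgroups and of all probes and the counts of the other gene lists, 41 recomputed values moved by more than the spread between rats or by over 1.5 times and 171 did not. Signal over background limits Cox8b and Cox8c, which are dim.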
